A study of Homo sapiens with 6 samples.

Results

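The respiratory chain passes electrons from NADH and succinate through complex I, ubiquinone, complex III and cytochrome c to complex IV, and pumps protons across the inner mitochondrial membrane as it does so. ATP synthase (complex V) lets the protons flow back through its c ring and makes ATP in its F1 head. Most subunits are encoded by nuclear genes that RNA polymerase II (Pol II) transcribes, whereas a small core of complexes I, III, IV and V is encoded by mitochondrial DNA, which has an RNA polymerase of its own, so that these complexes are built from transcripts of both genomes.

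The genes of these complexes were taken by symbol from GENCODE 44, as protein-coding nuclear genes of the NDUF, UQCR, COX and ATP5 families with CYC1 and CYCS, and as all genes of mitochondrial DNA. The symbols gave 123 genes, of which 99 had a transcript in the deposited files, 86 nuclear and 13 mitochondrial. The other 24, the 2 rRNA and 22 tRNA genes of mitochondrial DNA, were not analysed here. Of the 35810 genes with a transcript, 13737 had at least 10 reads in at least 3 libraries and were tested, and 92 of these were respiratory chain or ATP synthase genes, 79 nuclear and 13 mitochondrial. The 7 nuclear genes below that limit were ATP5MGL, COX4I2, COX6A2, COX6B2, COX7A1, COX7B2 and COX8C.

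The RNA came from DLD-1 cells, a colorectal adenocarcinoma line, of the SPT5-AID genotype, in which the transcription factor SPT5 carries an auxin-inducible degron. A lentivirus delivered either an shRNA that targets ARMC5 (shARMC5) or a nontargeting control (shNT), with 3 replicates each, and the comparison asks how lowering ARMC5, a substrate adaptor of the ubiquitin ligase CUL3 that acts on Pol II, changes mRNA levels. Both groups carry the degron, no auxin is named for either group, and which of the ARMC5 constructs was used is not given in the sources used here. Nothing in the labels says that the replicates were separate infections or cultures, so that P values measure the spread between these libraries.

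Polyadenylated RNA was sequenced, and 26201112 to 40866478 reads per library were assigned to transcripts. Levels are given as CPM, reads per 1000000 reads on tested genes after TMM normalization, and, where genes are compared with each other, as TPM, which also divides by transcript length. ARMC5 had 10.8, 11.97 and 12.9 CPM in the shARMC5 libraries and 23.0, 25.9 and 26.7 CPM in the shNT libraries. The 2 groups did not overlap (log2 fold change -1.09, standard error (SE) 0.08, adjusted P = 5.32e-07 from edgeR's quasi-likelihood test). The epithelial genes EPCAM, CDH1, CDX2, KRT8, KRT18 and KRT19 were detected in every library, and CDX1 was at 0. Of the 7 tested epithelial genes, KRT18 (0.25), KRT8 (0.18) and KRT19 (0.11) were called higher in shARMC5 cells and VIL1 (-1.30) lower. Of all genes tested, 7.75% were called. Of the markers of other cell types, the fibroblast genes COL3A1 and LUM, the T cell gene CD3E and the endothelial gene CDH5 were at 0, COL1A2, DCN and PTPRC had 0 to 4 reads per library, COL1A1, PDGFRB, CD79A and PECAM1 had 3 to 20, and CD68 and VWF had 21 to 66. None of the 4 of these that were tested was called by edgeR, and all 4 had an unadjusted P value above 0.05.

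The 13 mitochondrial reading frames lie close together, and some overlap, so that a read can belong to 2 of them. MT-ATP8 (chrM:8366-8572, 207 bases) and MT-ATP6 (chrM:8527-9207, 681 bases), both subunits of the membrane part of ATP synthase, share the 46 bases of chrM:8527-8572 on the plus strand of GRCh38. MT-ND4L (chrM:10470-10766) and MT-ND4 (chrM:10760-12137), 2 membrane subunits of complex I, share the 7 bases of chrM:10760-10766. These shared stretches, read from the GENCODE transcripts, are shown because a read on them can be assigned to either gene. How salmon divided such reads was not tested.
MT-ATP8 and MT-ATP6: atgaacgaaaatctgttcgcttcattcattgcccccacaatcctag
MT-ND4L and MT-ND4: atgctaa

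Copies of mitochondrial DNA inserted in the nuclear genome are a further place where such reads can go. MTATP6P1, a copy of MT-ATP6 on chromosome 1 from 633696 to 634376, differed from it at 10 of 681 aligned bases (98.5% identity). The first 60 bases of MT-ATP6 (chrM:8527-8586) and of the copy (chr1:633696-633755, plus strand of GRCh38) are given with the base at which they differ in capitals.
MT-ATP6: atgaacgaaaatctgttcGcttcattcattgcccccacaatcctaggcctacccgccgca
MTATP6P1: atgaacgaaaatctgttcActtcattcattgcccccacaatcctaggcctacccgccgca

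Stretches of 31 bases that also occur in another gene's transcript made up 66.7% of all such stretches of MT-CO1, 63.7% of MT-ATP6, 56.9% of MT-ND2 and 3.48% of MT-ND3. The median was 30.7% over the 13 mitochondrial genes and 6.11% over the 79 tested nuclear genes. Over the 6 libraries, the reads assigned to MTATP6P1 amounted to 14.3% of the number assigned to MT-ATP6, and those of MTND2P28, a copy of MT-ND2 on chromosome 1, to 7.28% of the number of its gene, each counted apart from the gene's own reads. Among the tested nuclear genes the share was highest in the readthrough genes NDUFC2-KCTD14 (87.4%) and ATP5MF-PTCD1 (85.3%), which contain exons of their neighbours. NDUFA7 (43.6%), NDUFB8 (35.4%) and COX8A (31.5%) followed.

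No gene of the respiratory chain or ATP synthase was differentially expressed between shARMC5 and shNT cells in edgeR's test of condition alone. There, 0 of the 79 nuclear and 0 of the 13 mitochondrial genes had an adjusted P value under 0.1, the threshold for a called gene, where 7.75% of all 13737 genes tested were called. At an unadjusted P value under 0.05 there were 5 nuclear and 0 mitochondrial genes, against 18.1% of all genes. DESeq2, which called 877 genes in all, also called 0 of the 92. With an offset for transcript length, DESeq2 called 568 genes in all and 1 of the 92, NDUFS1 (-0.14, adjusted P = 0.0494). With replicate number added to its model, edgeR called 1766 genes in all and 5 of the 92, NDUFA8, COX7C, COX4I1, UQCRB and CYCS. No test of the genes as a set was run, since they were chosen with earlier results of these data known.

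The nuclear genes lay in a narrow band around no change. Their log2 fold changes ran from -0.07 (ATP5PF) to 0.13 (UQCRHL), 45 above and 34 below 0, with a median of 0.00, the same as the median of all genes tested when rounded. The median standard error was 0.04, and the 95% interval of the fold change lay within ±0.2 on the log2 scale, a 1.15-fold change, for 69 of the 79 genes and within ±0.5 for 76. The mitochondrial genes had a similar median, 0.04, with 8 above and 5 below 0. Their median standard error was 0.34, and the interval lay within ±0.5 for 2 of 13 and within ±1 for 6 of 13.

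**Figure D1:**
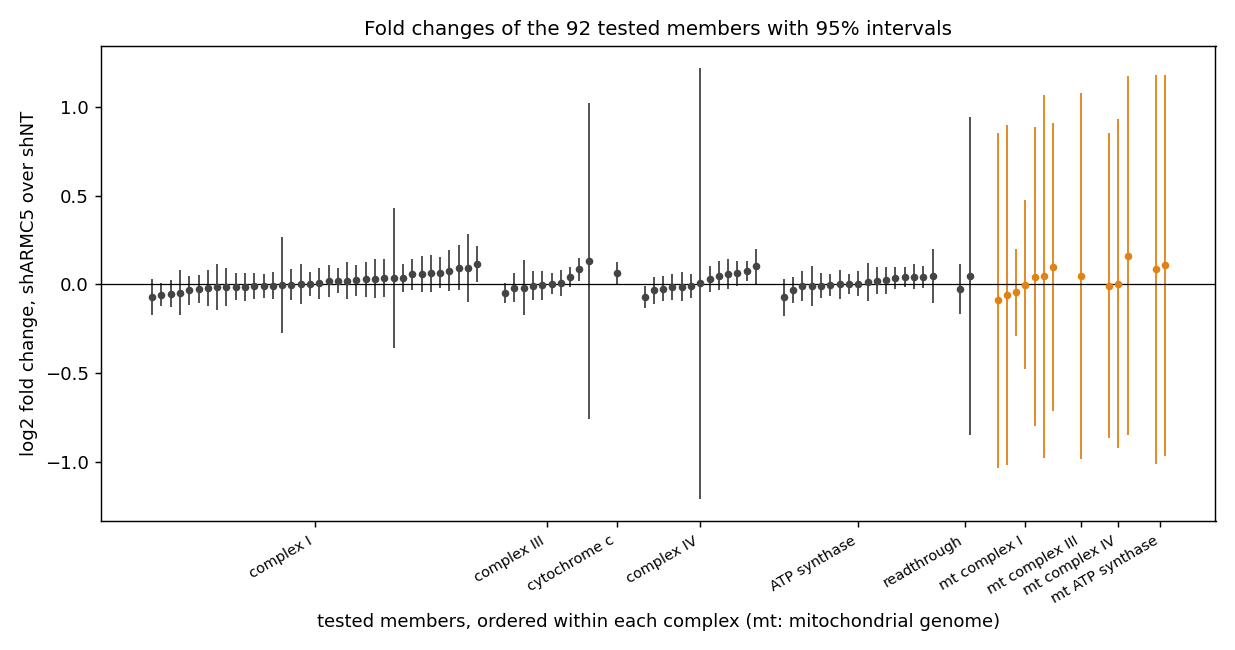
Log2 fold change of shARMC5 over shNT (y axis) for the 92 tested genes, ordered within each complex along the x axis; points are the edgeR estimates and lines their 95% intervals, black for nuclear and orange for mitochondrial genes. Every point lies between -0.09 and 0.16, and the intervals of the mitochondrial genes are wider than those of nearly all nuclear genes.

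Complex I, the NADH dehydrogenase, was represented by 36 nuclear genes, 7 of core subunits that carry out electron transfer and 29 of accessory subunits. None was called by edgeR's test of condition alone, and 1, NDUFS1, by DESeq2 with the length offset. With edgeR, 20 estimates were positive and 16 negative, and the median log2 fold change was 0.01. The summed level of these genes was 2368, 2409.9 and 2456 CPM in the shARMC5 libraries and 2336, 2436 and 2414 CPM in the shNT libraries. The highest sum was 1.05 times the lowest, and the groups overlapped.

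NDUFA8, an accessory subunit of complex I with cysteine motifs of the intermembrane space, had 60.6, 66.7 and 67.1 CPM with shARMC5 and 58.1, 62.5 and 58.8 CPM with shNT. Its estimate was the highest of complex I, though the gene was not called and shARMC5 replicate 1 lay among the shNT libraries. The log2 fold change was 0.12 (SE 0.05, adjusted P = 0.194). Without shARMC5 replicate 1 it was 0.16 and was called (adjusted P = 0.0681). NDUFA3, another accessory subunit, followed with 0.09 (SE 0.09, adjusted P = 0.647) on 333 to 455 reads.

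NDUFS1, the largest core subunit, which holds iron-sulfur clusters, had 159.5, 160.25 and 160.3 CPM in the shARMC5 libraries and 171, 167 and 161 CPM in the shNT libraries. All shARMC5 libraries lay below all shNT libraries, by a narrow margin from shNT replicate 3. The log2 fold change was -0.06 (SE 0.03, adjusted P = 0.332) with edgeR, and -0.14 (adjusted P = 0.0494) with DESeq2 and the length offset. The reads of NDUFS1 were spread over many transcripts, the leading one (11660 bases) taking 33.1%. NDUFA5, an accessory subunit of the matrix arm, had the lowest estimate of complex I, -0.07 (SE 0.05, adjusted P = 0.467), with groups that overlapped.

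NDUFB7, an accessory subunit of the membrane arm, had 63.7, 63.2 and 63.9 CPM with shARMC5 and 65.2, 65.4 and 67.0 CPM with shNT. The groups did not overlap, and the log2 fold change was -0.05 (SE 0.04, adjusted P = 0.509). By level the genes of complex I ranged from 16.4 TPM for NDUFV3, an accessory subunit of the NADH-binding module, to 374 TPM for NDUFB4 of the membrane arm.

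Complex III, the cytochrome bc1 complex, was represented by 10 nuclear genes with a median log2 fold change of 0.00, 5 estimates positive and 5 negative. CYC1 (cytochrome c1) and UQCRFS1 (the Rieske iron-sulfur protein), its nuclear-encoded redox subunits, had log2 fold changes of 0.00 (SE 0.03) and 0.01 (SE 0.03). UQCRC1 and UQCRC2, the paired core proteins, lay on opposite sides of no change. UQCRC1 had 194, 189.7 and 194 CPM with shARMC5 and 187, 186 and 188 CPM with shNT, a log2 fold change of 0.04 (SE 0.03, adjusted P = 0.459). UQCRC2 had 189.7, 193 and 189.8 CPM with shARMC5 and 197, 197 and 199 CPM with shNT, a log2 fold change of -0.05 (SE 0.03, adjusted P = 0.334). In neither gene did the groups overlap, and neither was called.

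UQCRB, the small subunit that contacts ubiquinone, had 174, 183 and 183 CPM with shARMC5 and 165, 173 and 171 CPM with shNT. The shARMC5 libraries all lay above the shNT libraries, and the log2 fold change was 0.08 (SE 0.03, adjusted P = 0.145). Without shARMC5 replicate 1 it was 0.11 and was called (adjusted P = 0.0787). The lowest estimate after UQCRC2 was that of UQCRQ, a small membrane subunit, at -0.02 (SE 0.04). The highest estimate of the complex, 0.13, belonged to UQCRHL, an intron-poor copy of the hinge protein gene UQCRH that rested on 10 to 23 reads per library (SE 0.42). UQCRH itself had the highest level of the complex, 591 TPM, against 0.37 TPM for UQCRHL, and a log2 fold change of -0.01.

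CYCS, which encodes cytochrome c, the carrier between complexes III and IV, had 385, 407 and 399 CPM with shARMC5 and 370, 398 and 373 CPM with shNT. The shNT replicate 2 library lay within the range of the shARMC5 libraries. The log2 fold change was 0.06 (SE 0.03, adjusted P = 0.303). Without shNT replicate 2 it was 0.10 and was called (adjusted P = 0.0735).

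Complex IV, cytochrome c oxidase, was represented by 19 nuclear genes, of which 13 were tested, and 3 of the 13 had an unadjusted P value under 0.05, beside 18.1% of all genes tested. COX4I1, the ubiquitous form of the regulatory subunit 4, had 244, 241 and 245 CPM with shARMC5 and 226, 234 and 233 CPM with shNT. The groups did not overlap, and its log2 fold change of 0.08 (SE 0.03) came with the smallest adjusted P value of all 92 genes, 0.129. COX6C, a small membrane subunit, had 58.3, 64.3 and 63.5 CPM with shARMC5 and 57.9, 55.4 and 60.5 CPM with shNT, a log2 fold change of 0.10 (SE 0.05, adjusted P = 0.272). Its shARMC5 replicate 1 lay among the shNT libraries.

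COX7C, another small membrane subunit and the most abundant nuclear mRNA of complex IV at 733 TPM, had an estimate of the other sign and was not called. It had 175, 176 and 182 CPM with shARMC5 and 183, 188 and 188 CPM with shNT. The groups did not overlap, and the log2 fold change was -0.07 (SE 0.03, adjusted P = 0.212). COX5B, a subunit that binds zinc, followed with -0.03 (SE 0.03, adjusted P = 0.676). The median over the 13 genes was 0.01, with 7 estimates positive and 6 negative.

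Several subunits of complex IV come in a general form and a form limited to muscle, lung or testis, and the general forms held nearly all the reads. COX4I1, COX6A1, COX6B1, COX7A2, COX7B and COX8A had 291 to 609 TPM and log2 fold changes of -0.02 to 0.08. COX4I2, COX6A2 and COX7A1 were at 0 reads in every library. COX8C had 0 to 2 reads, COX7B2 0 to 3 and COX6B2 2 to 14. At these depths a few reads set the value, and no fold is given. NDUFA4, a complex IV subunit despite its name, had 240.4 TPM, and its paralog NDUFA4L2, known from hypoxic cells, had 0.83 TPM on 5 to 17 reads. COX7A2L, a paralog of COX7A2 that joins complexes III and IV, had 140.1 TPM and a log2 fold change of -0.01 (SE 0.04).

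ATP synthase was represented by 18 nuclear genes, 17 of them tested. None had an unadjusted P value under 0.05, beside 18.1% of all genes tested. Their log2 fold changes lay between -0.07 and 0.05, 11 positive and 6 negative, with a median of 0.00. ATP5F1B, the catalytic beta subunit and the nuclear gene with the most reads (25518 to 41094 per library), had 1027, 1042 and 1012 CPM with shARMC5 and 984, 1018 and 993 CPM with shNT. The groups overlapped at one library of each, and the log2 fold change was 0.04 (SE 0.03, adjusted P = 0.439). ATP5F1A, the alpha subunit, had a log2 fold change of 0.00 (SE 0.03).

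ATP5MC1, ATP5MC2 and ATP5MC3, a trio of genes for the same mature c subunit of the proton-driven ring, had 209, 198 and 456 TPM. Their log2 fold changes were -0.01, -0.03 and 0.04, each with a SE of 0.03 to 0.04. In the peripheral stalk, which holds the F1 head still, ATP5PF had the lowest estimate of the complex, -0.07 (SE 0.05, adjusted P = 0.467), with overlapping groups. In the membrane part, ATP5MK had the highest, 0.05 (SE 0.07). ATP5ME, also a membrane subunit, had the highest level of all nuclear genes, 972 TPM, and ATP5F1E, the small epsilon subunit of F1, had the lowest of the tested ATP synthase genes, 96.0 TPM. ATP5MGL, a copy of the membrane subunit gene ATP5MG, had 0 to 3 reads.

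Over the 92 tested genes, the shARMC5 libraries all lay above the shNT libraries for 3 (UQCRC1, UQCRB and COX4I1), where this held for 12.5% of all genes tested, and all below for 4 (NDUFS1, COX7C, UQCRC2 and NDUFB7), against 10.9% of all genes. The 2 readthrough genes, ATP5MF-PTCD1 and NDUFC2-KCTD14, had 11.1 and 2.88 TPM and log2 fold changes of -0.03 (SE 0.07) and 0.05 (SE 0.42). They belong to no complex, and much of their sequence is that of their neighbours.

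The gene totals could hide shifts between transcripts. The genes had 644 transcripts in the files, of which 370 passed the same limit, and edgeR called 0 of them, where 4 of 51892 transcripts (0.00771%) were called in all. An unadjusted P value under 0.05 was found for 7, beside 4.8% of all transcripts tested, and the smallest adjusted P value was 0.433. The leading transcript took a median of 79.2% of a nuclear gene's reads and was protein-coding in 74 of 79 genes, with the lowest share, 31.8%, in COX7A2.

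**Figure D2:**
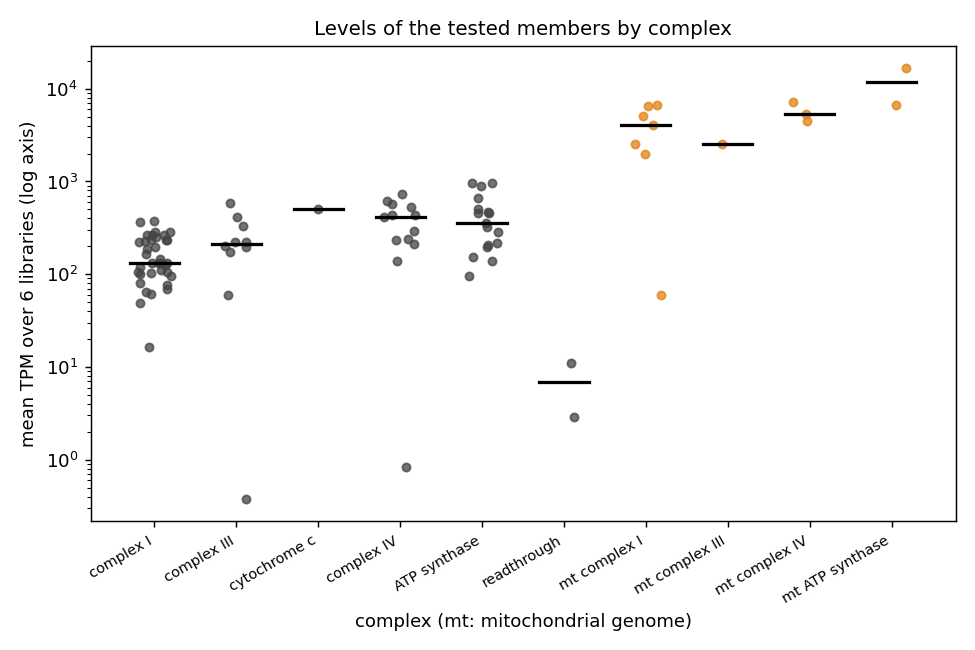
Mean TPM over the 6 libraries (log axis) of each tested gene by complex, black for nuclear and orange for mitochondrial genes, with a bar at the median of each column. The medians of the nuclear columns lie between 132 TPM for complex I and 508 TPM for cytochrome c, below which the 2 readthrough genes stand apart, and those of the mitochondrial genes lie at 2552 TPM or above.

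The mitochondrial mRNAs stood far above the nuclear ones. The median was 5052 TPM over the 13 mitochondrial and 220.1 TPM over the 79 nuclear genes. The highest level was listed for MT-ATP8, 16932 TPM, which follows from an effective length of 77 to 80 bases for a transcript of 207 bases, and its 597 to 1371 CPM were fewer reads than 9 of the other mitochondrial mRNAs had. MT-ATP6 had 6724 TPM, MT-CO2 7277 TPM and MT-CO1 5294 TPM, the latter being mitochondrial subunits of complex IV. MT-ND6, a complex I subunit and the only one of the 13 on the minus strand, had the lowest, 60.4 TPM. These libraries hold polyadenylated RNA, so that an mRNA with a short or missing tail can be measured low. Tails were not measured, and what sets the level of MT-ND6 was not tested.

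The mitochondrial mRNAs also differed between libraries in a way that the nuclear genes did not. They took 2.68%, 2.30% and 3.30% of the reads in shARMC5 replicates 1, 2 and 3 and 1.93%, 2.39% and 3.84% in shNT replicates 1, 2 and 3. The lowest and the highest library were both shNT, and all shARMC5 libraries lay between them. Their mean over shARMC5 libraries was 28607 ± 5306 CPM (SD, n = 3) and that over shNT libraries 27979 ± 10477 CPM (SD, n = 3), and the highest library was 2.03 times the lowest. The nuclear genes together had 8931, 9131 and 9169 CPM with shARMC5 and 8742, 9132 and 9044 CPM with shNT, the highest 1.05 times the lowest.

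**Figure D3:**
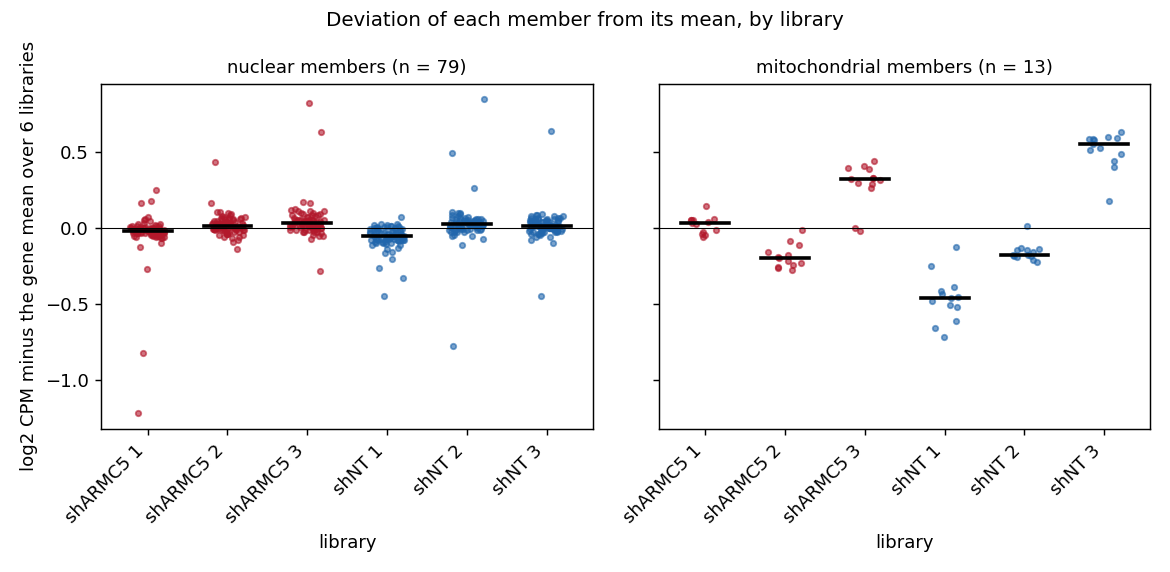
Log2 CPM of each tested gene minus its mean over the 6 libraries (y axis), by library, for the 79 nuclear genes (left) and the 13 mitochondrial genes (right); red points are shARMC5 and blue points shNT libraries, and bars are medians. The nuclear medians lie between -0.05 and 0.03, and the mitochondrial medians run from -0.46 in shNT replicate 1 to 0.55 in shNT replicate 3.

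The median within-group SD of log2 CPM was 0.42 for the mitochondrial and 0.05 for the nuclear genes, beside 0.08 for all genes tested. For each of the 13 mitochondrial genes shNT replicate 1 was the lowest and shNT replicate 3 the highest library. In shARMC5 replicate 3, 11 of them lay above their own mean, and MT-ND3 and MT-ND6 lay at -0.02 and 0.00 on the log2 scale. What sets these 2 libraries apart in mitochondrial mRNA was not tested. Their reads, 33214873 in shNT replicate 1 and 28989462 in shNT replicate 3, lay within the range of the other libraries. The libraries with the fewest reads, shARMC5 replicate 3 (26201112) and shNT replicate 3, had the highest mitochondrial shares, 3.30% and 3.84%. The library with the most reads, shARMC5 replicate 2 (40866478), had 2.30%. A relation between depth and this share was not tested. The TMM factor was highest in shNT replicate 1, 1.02, and between 0.992 and 1.002 in the others. Differences in mitochondria per cell, in mRNA per mitochondrion and in library preparation cannot be told apart in such data.

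In complex I, the mitochondrial genes encode the proton-pumping membrane core. MT-ND4 had 4195, 3596 and 5449.5 CPM with shARMC5 and 3230.5, 3983 and 6601 CPM with shNT. The shNT libraries enclosed the shARMC5 libraries on both sides, and the log2 fold change was -0.06 (SE 0.35, adjusted P = 0.958). MT-ND1, MT-ND2, MT-ND5 and MT-ND4L showed the same order at both ends, with log2 fold changes of 0.05, 0.04, 0.10 and -0.09 and SEs of 0.30 to 0.37.

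MT-CYB, the cytochrome b of complex III, had 1834, 1493 and 2348 CPM with shARMC5 and 1251, 1546 and 2691 CPM with shNT, a log2 fold change of 0.05 (SE 0.38). In complex IV, MT-CO1, which holds the oxygen-reducing site and had the most reads (up to 212458), had 5115, 4589 and 6465 CPM with shARMC5 and 3951, 4727 and 7582 CPM with shNT. Its log2 fold change was -0.01 (SE 0.31), that of MT-CO2, which takes electrons from cytochrome c, was 0.16 (SE 0.37) and that of MT-CO3 0.00 (SE 0.34). In ATP synthase, MT-ATP6 and MT-ATP8 had 0.11 and 0.08 (SEs 0.39 and 0.40). All 13 groups of libraries overlapped, and every adjusted P value was 0.865 or above.

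**Figure D4:**
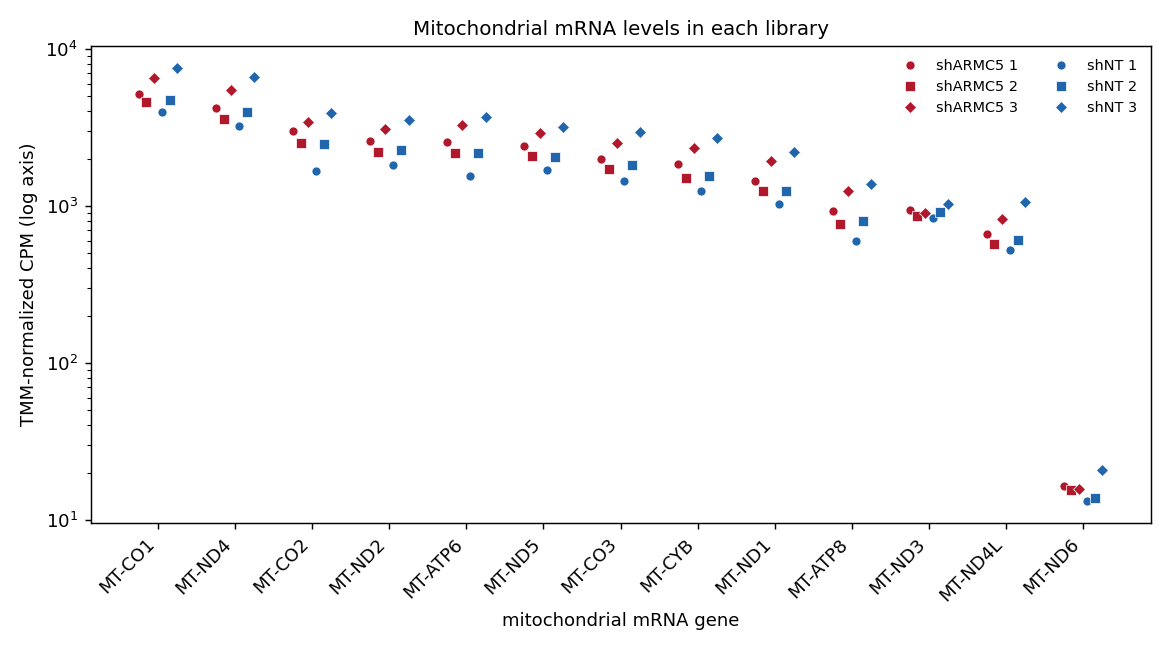
TMM-normalized CPM (log axis) of the 13 mitochondrial mRNAs in each of the 6 libraries, red for shARMC5 and blue for shNT, with a marker shape for each replicate number. In each gene the shNT libraries hold both the lowest and the highest value; the spread is narrow for MT-ND3 (834 to 1029 CPM) and wide for MT-ATP6 (1557 to 3667 CPM).

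MT-ND3, a small membrane subunit of complex I, varied least. It had 941, 858 and 899 CPM with shARMC5 and 834, 919 and 1029 CPM with shNT, the highest 1.23 times the lowest, and a log2 fold change of -0.04 (SE 0.09, adjusted P = 0.865). The ratio was 1.57 for MT-ND6, on 397 to 616 reads, and 1.86 to 2.36 for the other 11 mitochondrial genes. Among all mitochondrial reads, MT-ND3 therefore took 4.25% in shNT replicate 1 and 2.59% in shNT replicate 3, the libraries with the fewest and the most. MT-ND4L took 2.39% to 2.67% of the mitochondrial reads. What sets MT-ND3 apart was not tested.

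The direction of the mitochondrial genes depended on single libraries. The median log2 fold change of 0.04 became -0.15 without shNT replicate 1 and 0.35 without shNT replicate 3, and no mitochondrial gene was called with any library left out. For the difference in the share of reads, 0.04 percentage points (shARMC5 minus shNT), the values without those libraries were -0.36 and 0.60 points.

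The other genes of the pathway were read from lists of complex II, assembly factors, coenzyme Q synthesis, mitochondrial DNA expression, mitochondrial ribosomes and regulators. None of the 4 tested genes of complex II, succinate dehydrogenase, was called, nor any of 18 complex I, 9 complex III and 7 ATP synthase assembly genes, 11 genes of coenzyme Q synthesis or 8 regulators. These calls are edgeR's, which called 7.75% of all genes tested. Over the same 57 genes DESeq2 called 0, where it called 877 genes in all. An unadjusted P value under 0.05 in edgeR's test was found for 5 of the 57, beside 18.1% of all genes tested. The medians of these lists lay between -0.05 and 0.02. The complex I assembly list held NDUFAB1, an accessory subunit that the symbols did not catch, and the ATP synthase list held ATP5IF1, its inhibitor.

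For the remaining lists, the calls stand beside the 7.75% of all genes tested that were called. Among 23 complex IV assembly genes 1 was called higher, HIGD1A, a small membrane protein that associates with complex IV. It had 94.0, 100.1 and 101.9 CPM with shARMC5 and 87.0, 90.9 and 90.9 CPM with shNT, and the groups did not overlap (log2 fold change 0.14, SE 0.04, adjusted P = 0.0454). Among 30 genes of mitochondrial transcription and RNA handling, 1 was called higher, GRSF1, an RNA-binding protein of mitochondrial RNA granules. It had 177, 174 and 165 CPM with shARMC5 and 157, 155 and 167 CPM with shNT (0.11, SE 0.03, adjusted P = 0.0848), with shARMC5 replicate 3 inside the shNT range. DESeq2 called none of these 30 genes, GRSF1 included, where it called 877 genes in all. TFAM, which packages mitochondrial DNA, had 0.00 (SE 0.04), POLRMT, the mitochondrial RNA polymerase, 0.07 (SE 0.04) and LRPPRC, which stabilizes mitochondrial mRNAs, -0.02 (SE 0.03).

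Of 77 genes of mitochondrial ribosomal proteins 3 were called higher and 0 lower, again beside 7.75% of all genes tested. MRPL46, MRPL38 and MRPL42, all proteins of the large subunit, had log2 fold changes of 0.18, 0.15 and 0.13 (adjusted P = 0.0894, 0.0309 and 0.0536). In each the shARMC5 libraries lay above the shNT libraries. DESeq2 called 2 of the 77 genes, where it called 877 genes in all. The list's median was 0.02, with 53 estimates positive and 24 negative. Over all these lists the 5 called genes became 1 with an offset for transcript length, 3 with DESeq2, and 1 when shARMC5 replicate 2, shARMC5 replicate 3 or shNT replicate 1 was left out. DESeq2 with that offset called none of the 5 and 1 other, YY1, a factor known from respiratory chain promoters, at -0.16 (adjusted P = 0.00572), against -0.01 (SE 0.03, adjusted P = 0.885) in the edgeR fit. PPARGC1A, the coactivator that drives mitochondrial gene expression in other tissues, had 0 to 1 reads.

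The promoters of the nuclear genes were searched for letters of 4 factors known from respiratory chain promoters, on both strands, in windows of 250 bases before to 50 after the RefSeq start (GRCh38.p14). The letters were GCGCATGC for NRF1, CCGGAAG for ETS factors such as GABP, AAGATGGC for YY1 and AAGGTCA for estrogen-related receptors, and CCGGAAG ends in the letters with which the last of these begin, so that matches can overlap. Of the 79 tested nuclear genes 63 had a window in the table. A gene counted if any of its windows held the letters. The genes compared were not matched for number of windows or for expression. NRF1 letters were in 20.6% of them, against 3.68% of 27305 genes in the table, which include noncoding genes. The shares were 30.2% and 12.2% for ETS, 17.5% and 3.52% for YY1, and 14.3% and 4.80% for estrogen-related receptors. At least 1 of the motifs was in 38 of the 63 (60.3%), against 21.7% of all genes in the table.

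Windows are shown for 5 of the genes with a match, as examples chosen after their values were seen, with the matching letters in capitals, each 5' to 3' in the direction of the gene. They are NDUFS1 (chr2:206159584-206159612, minus strand), NDUFB7 (chr19:14572073-14572101, minus strand) and COX4I1 (chr16:85799686-85799714, plus strand) for ETS, NDUFA8 (chr9:122159765-122159794, minus strand) for NRF1, where a match on the other strand overlaps the one in capitals, and UQCRC1 (chr3:48609605-48609634, minus strand) for YY1.
NDUFS1: ggctggggccaCTTCCGGcggaactgcgg
NDUFB7: gcctaaatgacCCGGAAGctgtgtctgac
COX4I1: ggccttgctctCTTCCGGtcgcgggacac
NDUFA8: tgttgccggatGCGCATGCgcaggcgccgt
UQCRC1: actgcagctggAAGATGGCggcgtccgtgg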

How the data were processed

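RNA-seq was analysed in 6 libraries, grouped by the labels. Per the labels, the authors trimmed reads with cutadapt 4.2 and quantified them with Salmon 1.9.0. The deposited files hold estimated counts and TPM per transcript, without normalization between libraries. Of 177456 transcripts, 165533 matched GENCODE 44 (hg38) by identifier without version, and the rest held 2.96% to 3.04% of reads. Estimated counts and TPM as deposited by the authors were summed per gene, the former then being rounded.

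A gene entered the test with 10 counts or more in 3 libraries or more, using edgeR 4.0.16 (R 4.3.3; quasi-likelihood F test, robust, TMM, condition only), two-sided, with Benjamini-Hochberg adjustment over all genes tested and a threshold of 0.1. DESeq2 1.42.0 was an alternative, beside other scalings, filters and offsets, a replicate block, added unmatched or pseudogene reads, and each library left out. On simulated data for shARMC5 against shNT (13602 genes), edgeR recovered 91.7% of changes of 1 on the log2 scale and 38.4% of 0.3, with 9.35% of calls false. Every simulated gene had the same spread, a coefficient of variation of 0.0643 between libraries. These rates therefore do not describe the mitochondrial genes, whose median within-group SD of log2 CPM was 0.42. Tables were made with Python 3.11.15 and pandas 2.3.3.

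Genes were named if called, mitochondrial, tissue forms, paralogs or readthroughs, at the extremes of fold change or TPM in a complex, or called in a list (at most 5 each way). UQCRC1, NDUFB7, CYC1, UQCRFS1, ATP5F1A, ATP5F1B, ATP5MG, TFAM, POLRMT, LRPPRC, PPARGC1A and the pseudogenes were named after their values were seen. Members and lists were chosen with earlier results of these data known.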

Additional observations from a re-analysis of the deposited data

How the results depend on the processing

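No member changed sign while called, and the 13 mitochondrial genes and the members' transcripts gave 0 calls under every alternative run. Of all genes tested, 1064 were called, and 235 with edgeR's transcript length offset, 877 with DESeq2, 568 with DESeq2 and that offset, and 676 at an adjusted P value under 0.05. Leaving out 1 library gave 536 (without shNT replicate 1) to 1085 genes. The count of respiratory chain genes, 0, became 1 with DESeq2 and the length offset (NDUFS1) and 1 when unmatched transcripts were added to the gene listed before them (COX7A1, itself at 0). Leaving out 1 library gave 0 to 2. The 5 called genes of the pathway lists became 1 with the length offset, 3 with DESeq2, 1 with DESeq2 and the offset (chosen after seeing the data), and 1 to 6 with a library left out. Over all genes tested, deviations of same-numbered libraries from their group means showed almost no correlation (-0.0136, -0.0059 and -0.0216). That does not exclude a batch shared by part of the genes. With the replicate block 1766 genes, 5 respiratory chain genes (NDUFA8, COX7C, COX4I1, UQCRB and CYCS) and 11 list genes were called. The cause of these shifts was not tested. Of the 79 nuclear estimates (78 in some fits), 10 changed sign with library size only, 12 with each length offset and 11 to 17 with a library left out. With a library left out, the median log2 fold change of the nuclear genes lay between -0.01 and 0.03 for complex I, -0.02 and 0.02 for complex III, -0.02 and 0.03 for complex IV, and -0.01 and 0.03 for ATP synthase, that of the mitochondrial genes between -0.15 and 0.35, and the difference in their share of reads between -0.36 and 0.60 percentage points. The 95% intervals given are those of single genes without adjustment, so that their width is not the limit of detection. That of NDUFA8, 0.02 to 0.21, lay above 0, and the gene was not called in edgeR's test of condition alone. Changes that lie within the intervals were not excluded.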

Other observations

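The nuclear copies of mitochondrial genes with the most reads were compared with the mitochondrial mRNAs across libraries. GENCODE names 615 pseudogenes after the genes described, 403 of them after mitochondrial genes, and 8 had at least 100 reads over the 6 libraries. MTATP6P1 had 355, 335 and 485 CPM with shARMC5 and 218, 295 and 507 CPM with shNT, and MTND2P28 had 188, 163 and 218 CPM with shARMC5 and 133, 169 and 256 CPM with shNT. In both copies, and in MTND4P12, MTCYBP18 and MTCO1P12, shNT replicate 1 was the lowest and shNT replicate 3 the highest library, as in the mitochondrial genes they resemble. MTCO2P12, on 19 to 32 reads, was lowest in shARMC5 replicate 2 (0.59 CPM) and highest in shNT replicate 3 (1.14 CPM). UQCRFS1P1, a copy of the Rieske protein gene on chromosome 22, had 9.08 to 11.4 CPM and took 8.78% as many reads as UQCRFS1, whose highest library was 1.07 times its lowest. Adding the reads of the copies to their genes left all 92 genes uncalled.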
